A study of Mus musculus with 9 samples.

Results

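Obliterative bronchiolitis (OB), the scarring of the small airways that limits survival of lung grafts, was studied in a mouse model in which the left lung of a C57BL/10 donor was transplanted orthotopically into a C57BL/6 recipient. The comparison covered 6 of the 9 arrays of the series: 3 allografts classed by histology as OB and 3 left lungs of sham-operated mice, which had a thoracotomy and no graft, all taken on day 21. The mice were male, the donor and recipient strains share their major histocompatibility haplotype and differ in minor antigens, and whole-lung total RNA was labelled with Cy3 and hybridised to a 1-colour Agilent array. The other 3 arrays, allografts with no OB lesion, entered the fit only to estimate the spread. There were no syngeneic grafts, so the effects of surgery, of the response to donor tissue and of the airway lesion cannot be told apart in OB against sham. In the same way, a lower signal of a cell type's genes in whole-lung RNA can mean fewer cells or less RNA per cell, and these cannot be told apart either.

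A graft is entered by recipient monocytes, dendritic cells and T cells. T cells and natural killer cells secrete interferon gamma, which acts on most other cells and switches on genes for antigen processing, for chemokines that call more T cells and for GTPases of cell-autonomous defence. In the lung, the alveolar capillary endothelium, the airway epithelium and the fibroblasts around them depend on BMP, Notch, Wnt and FGF signals, and the bronchiolar epithelium carries most of the enzymes that detoxify inhaled chemicals.

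Each of the 6 arrays had 62976 spots, of which 59305 were not controls. Between 61.8% and 68.4% of these 59305 were well above background by the scanner software, with OB 1 and OB 3 lowest and OB 2 highest. The values are log2 signals after each array was scaled to a trimmed mean of 2500, and values of 3 arrays are given in the order of arrays 1, 2 and 3. Pairs of sham arrays correlated at 0.981 to 0.984 over all probes, pairs of OB arrays at 0.961 to 0.974, and OB with sham arrays at 0.949 to 0.971. OB 1, sham 1 and sham 2 shared 1 slide, while OB 2, OB 3 and sham 3 each lay on a slide without the other group. Lungs of both strains served as sham in the study. The labels do not say which sham lung was of which strain, and array names on a heat map among its supplements give sham 1 as C57BL/10 and the others as C57BL/6. Of 8 defining lung epithelial markers, 0 were called in limma (0 higher and 2 lower at an unadjusted p under 0.05, and likewise in the t-test of the study's methods), and the log2 of their summed signals was 19.77 to 20.35 in OB and 20.31 to 20.43 in sham arrays.

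Among 22909 genes represented by 1 probe each, 875 were higher (3.82%) and 855 lower (3.73%) in the OB grafts, 1730 in all (7.55%), at a Benjamini-Hochberg adjusted p under 0.05 in limma and at least a 2-fold change. A gene past both limits is described as called, and every adjusted p is from this fit. The median over all named genes was -0.05 on the log2 scale. By the fitted change, rises reached further than falls: 128 genes were at least 8-fold higher and 51 at least 8-fold lower. For 99 of the higher genes no sham array, and for 85 of the lower genes no OB array, was well above background. Their fold changes are given as lower bounds. With 1 array left out in turn, 413 of the higher and 190 of the lower genes stayed called in all 6 fits; over all probes the calls fell from 1539 higher and 1376 lower to 1440 and 1045 without OB 1, 932 and 722 without OB 2, 948 and 585 without OB 3, 873 and 594 without sham 1, 727 and 357 without sham 2, and 1081 and 533 without sham 3. For single lists below, calls are said to be kept where they held with 1 named array left out, and the arrays are named whose omission cut the count by more than 1.5 times. When slide was a fixed block, 3 genes stayed called, Ubd, Cxcl9 and the T-cell inhibitory receptor Tigit. All 1730 called genes kept their direction there and within the 1 shared slide. Both settings reuse arrays by which the genes were called, so the kept direction is no separate check on slide.

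Several of the 12 largest rises were in genes with little or no signal in sham lungs. Plekhs1, which encodes a pleckstrin homology domain protein, was at 8.49, 10.51 and 11.50 in the OB grafts and 3.88, 3.52 and 4.11 in the sham lungs (at least 67.1-fold higher, adjusted p = 0.00307). Dnase1l3, a secreted nuclease made by dendritic cells and macrophages, was at 9.37, 9.25 and 9.28 in the OB grafts and 3.59, 3.85 and 3.39 in the sham lungs, with nearly equal OB arrays (at least 38.1-fold higher, adjusted p = 0.000188). Pdcd1, the inhibitory receptor PD-1 of activated T cells, was at 12.02, 10.50 and 11.26 in the OB grafts and 5.21, 4.47 and 6.07 in the sham lungs (64.4-fold higher, adjusted p = 0.002). The 12 largest rises and falls were drawn from called genes whose groups did not overlap, so their separation follows from the choice. Plekhs1, Dnase1l3 and Pdcd1 stayed called whichever array was left out. Lbhd2, of little known function, was at 9.44, 10.54 and 11.87 in the OB grafts and 3.48, 4.73 and 4.46 in the sham lungs, a rise of 6.39 ± 0.58 (SE) (adjusted p = 0.00197), with 2 sham arrays well above background. Several of the 12 largest falls were in genes of muscle. Phospholamban (Pln), which restrains the calcium pump, was at 2.36, 2.14 and 2.61 in the OB grafts and 5.82, 7.26 and 7.57 in the sham lungs (at least 5.34-fold lower, adjusted p = 0.00256). The myosin Myh7b was at 7.86, 6.36 and 7.39 in the OB grafts and 10.84, 11.80 and 12.09 in the sham lungs (20.7-fold lower, adjusted p = 0.00893).

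Interferon-inducible GTPases rose as a whole: 16 of 16 measured members were called higher, with a median of 2.02 on the log2 scale, and 11 of them stayed called with any 1 array left out. Their median was 2.19 with slide as a block and 1.91 within the shared slide. These proteins attack the vacuoles in which intracellular microbes live, and interferon-activated factors switch their genes on through short promoter motifs. Iigp1, an immunity-related GTPase, was at 14.77, 15.40 and 15.14 in the OB grafts and 11.47, 12.25 and 11.89 in the sham lungs (9.39-fold higher, adjusted p = 0.00177). Gbp5, a guanylate-binding protein that promotes inflammasome assembly, was at 12.07, 12.18 and 12.09 in the OB grafts and 8.99, 9.17 and 9.13 in the sham lungs, so its 6 arrays formed a narrow upper and a narrow lower cluster (3.02 ± 0.24 (SE), 8.09-fold, adjusted p = 0.00138). Gbp8 was at 10.15, 11.34 and 11.03 in the OB grafts and 7.36, 7.59 and 7.97 in the sham lungs (9.20-fold higher, adjusted p = 0.0057). The smallest member change was in Gbp10, 1.32 (adjusted p = 0.0377), a call that was lost whichever array was left out (adjusted p up to 0.125).

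Promoters of this group, of the type I response and of the MHC class I path were searched for GAAANNGAA, the core of an interferon-stimulated response element, and for TTCNNNGAA, the core of a Stat site, on both strands, where N is any base. The windows ran from 250 bases before to 50 after the start of transcription in RefSeq for GRCm38.p6, a C57BL/6J genome. GAAANNGAA occurred in 8 of the 9 GTPase genes that had a promoter entry and in 11 of 17 type I genes, against 9.76% of all 27025 genes in the table. It occurred in 5 of 16 genes of MHC class I and antigen processing, a list described further on. TTCNNNGAA occurred in 5 of the 9 GTPases, 3 of the 17 type I genes, 2 of the 16 class I genes and 9.55% of all genes. A match describes these letters only and was not tested as a site. The stretches around the matches are shown 5′ to 3′ for a pair of GTPases and a pair of type I genes, with matches in capitals; where matches overlap, as in Isg15 with 3 copies, the capitals run on.
Igtp (chr11:58199486-58199555, plus strand, 1 match of each motif): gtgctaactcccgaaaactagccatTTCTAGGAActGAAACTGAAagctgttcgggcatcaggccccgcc
Irgm1 (chr11:48871411-48871475, minus strand, 2 matches of GAAANNGAA): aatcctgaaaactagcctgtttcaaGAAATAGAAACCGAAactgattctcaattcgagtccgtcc
Oas1a (chr5:120907506-120907648, minus strand, 2 matches of GAAANNGAA and 1 of TTCNNNGAA): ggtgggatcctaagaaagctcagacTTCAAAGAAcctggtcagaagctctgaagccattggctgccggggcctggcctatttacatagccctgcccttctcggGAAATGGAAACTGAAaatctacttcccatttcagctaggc
Isg15 (chr4:156200851-156200921, minus strand, 3 matches of GAAANNGAA): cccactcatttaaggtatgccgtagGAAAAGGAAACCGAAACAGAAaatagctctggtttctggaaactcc

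Igtp, whose stretch holds both motifs, was at 14.57, 14.92 and 14.83 in the OB grafts and 11.72, 12.07 and 12.04 in the sham lungs, 7.11-fold higher (adjusted p = 0.00138). Irgm1, a regulatory member of the same family, was at 12.49, 12.88 and 12.80 in the OB grafts and 10.54, 10.68 and 10.87 in the sham lungs, 4.07-fold higher (adjusted p = 0.00274). Oas1a, an enzyme that senses double-stranded RNA and activates an RNase, was at 13.31, 13.60 and 13.58 in the OB grafts and 10.94, 10.96 and 11.08 in the sham lungs, 5.68-fold higher (adjusted p = 0.00155). Isg15, a ubiquitin-like modifier, was at 13.36, 14.08 and 13.73 in the OB grafts and 11.98, 12.03 and 12.01 in the sham lungs, 3.28-fold higher (adjusted p = 0.0113), and its call was lost without sham 2 (adjusted p = 0.0529). In all 4 genes the OB and sham arrays did not overlap, which was so, with OB above, for 19.9% of all genes.

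In the interferon gamma pathway itself, the cytokine and the class I transactivator rose and the receptor did not pass the test: 7 of 14 members were called higher and 0 lower, with 4 kept without OB 2, OB 3, sham 1 or sham 2. Their median was 1.17 (1.03 within the shared slide). Ifng, the cytokine, was at 9.56, 10.23 and 10.46 in the OB grafts and 6.17, 6.84 and 7.23 in the sham lungs, a rise of 3.34 ± 0.36 (SE) (10.1-fold, adjusted p = 0.00307). Nlrc5, the transactivator of class I genes, was at 12.21, 12.81 and 12.52 in the OB grafts and 9.82, 9.96 and 9.74 in the sham lungs (6.38-fold, adjusted p = 0.00378). The ligand-binding receptor chain Ifngr1 differed by -0.03 (adjusted p = 0.948) and the kinase Jak1 by 0.05 (adjusted p = 0.866).

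Among 20 genes of the type I response, 12 were called higher and 0 lower, all 20 had a positive difference, and the median was 1.32 (0.91 within the shared slide). Of the 12 calls, 7 were kept without OB 3 or sham 3 and 5 without sham 2. Oas3, also a double-stranded RNA sensor, was at 7.39, 7.79 and 7.85 in the OB grafts and 4.36, 5.44 and 5.0 in the sham lungs (6.68-fold, adjusted p = 0.00579, well above background on 2 sham arrays). Irf7, the factor that amplifies type I interferon, was at 14.50, 14.77 and 14.93 in the OB grafts and 12.42, 12.65 and 12.70 in the sham lungs (4.40-fold, adjusted p = 0.00357). Cmpk2, a mitochondrial kinase of the same response, had overlapping groups at 10.04, 10.10 and 10.19 in the OB grafts and 9.60, 10.01 and 10.17 in the sham lungs (adjusted p = 0.629), and Rsad2 (viperin) differed by 0.48 (adjusted p = 0.263).

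T-cell and proliferation genes moved with these interferon genes. Of 22 T-cell genes, 18 were called higher, with the log2 of their summed signals at 16.35 to 16.57 in OB and 14.73 to 15.17 in sham arrays. Of 20 cell cycle genes, 13 were called higher, with the log2 of their summed signals at 15.09 to 15.47 in OB and 13.95 to 14.25 in sham arrays. The part of these cells in the interferon signal was not tested.

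Of MHC class I and its peptide-loading path, 11 of 19 members were called higher, all 19 had a positive difference, and the median was 1.23 (1.15 within the shared slide). Tap1, the peptide transporter, was at 13.45, 13.68 and 13.35 in the OB grafts and 11.25, 11.38 and 11.43 in the sham lungs (4.41-fold, adjusted p = 0.00315). Psmb9, a catalytic subunit of the immunoproteasome, was at 14.31, 14.30 and 14.45 in the OB grafts and 12.41, 12.67 and 12.67 in the sham lungs (3.41-fold, adjusted p = 0.00228). Psmb8, its partner, was at 14.06, 14.19 and 14.12 in the OB grafts and 12.31, 12.33 and 12.47 in the sham lungs (3.38-fold, adjusted p = 0.00266). Neither gene overlapped between groups, as for 19.9% of all genes with OB above. They were the 2 members called of 40 proteasome subunits, whose median was -0.09, and the constitutive subunit Psmb1 differed by 0.07 (adjusted p = 0.839). The classical class I heavy chain H2-K1 was at 17.73, 17.78 and 17.70 in the OB grafts and 16.38, 16.26 and 16.32 in the sham lungs, a rise of 1.42 ± 0.15 (SE) (2.67-fold, adjusted p = 0.003). Class I genes are near-identical copies of one another, so a probe can take up RNA of its neighbours, and the values of single members are uncertain to that extent.

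**Figure D1:**
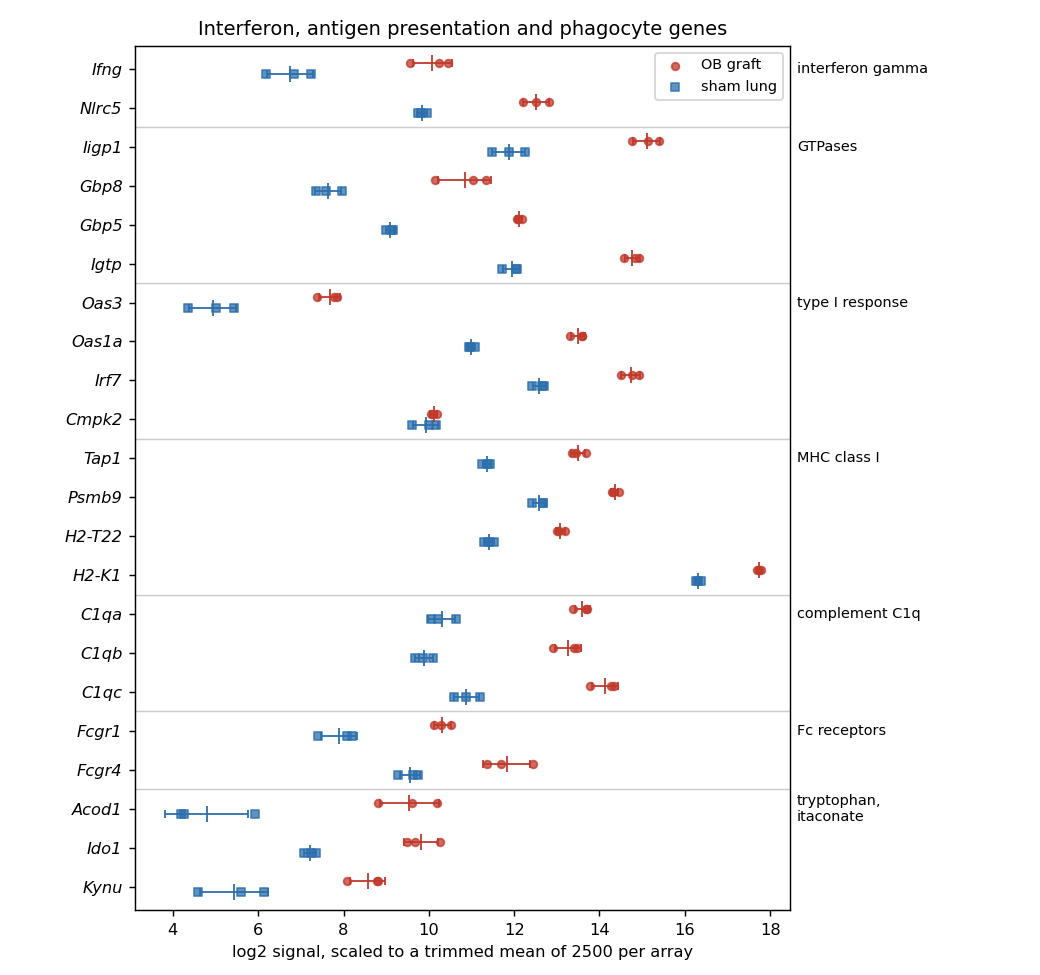
Log2 signal (horizontal axis, scaled to a trimmed mean of 2500 per array) of each OB array (red circles) and sham array (blue squares), with the mean and SD of each group as a vertical tick and a bar. The groups do not overlap in any gene shown except Cmpk2, and Gbp5 (3.02) and H2-K1 (1.42) have the tightest arrays of their blocks.

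The first component of complement rose and most of the rest did not pass the test. Of 24 complement genes 6 were called higher and 1 lower. Their median was 0.77 (0.91 within the shared slide). C1qa was at 13.70, 13.69 and 13.39 in the OB grafts and 10.04, 10.21 and 10.64 in the sham lungs (9.82-fold, adjusted p = 0.00138), and C1qb (3.38, 10.4-fold) and C1qc (3.25, 9.48-fold), which build the same recognition molecule in macrophages, rose by similar amounts. C3ar1, the receptor for the C3a fragment, was at 8.12, 9.06 and 8.38 in the OB grafts and 4.92, 4.57 and 5.96 in the sham lungs (10.3-fold, adjusted p = 0.00408). C3 itself, the central component, differed by 0.78 (adjusted p = 0.0693). Cd93, an endothelial and myeloid receptor once taken for a C1q receptor, was the member called lower (-1.34, adjusted p = 0.0192). It lost its call without OB 1, OB 3, sham 1 or sham 3 (adjusted p up to 0.0745). Among 17 Fc receptor genes, 7 were called higher, 0 lower and all 7 stayed called whichever array was left out (median 0.97 over all arrays and 1.0 within the shared slide). The activating receptors Fcgr1 (10.52, 10.29 and 10.12 in the OB grafts and 7.40, 8.20 and 8.07 in the sham lungs, 5.35-fold) and Fcgr4 (12.44, 11.37 and 11.68 in the OB grafts and 9.75, 9.28 and 9.63 in the sham lungs, 4.84-fold) rose, and so did the inhibitory receptor Fcgr2b (2.24, adjusted p = 0.00286).

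Markers of recruited macrophages rose in part, and few of those of resident alveolar macrophages and neutrophils passed the test. Of 15 monocyte and recruited macrophage markers 7 were called higher and 0 lower. Their median was 1.67 (1.33 within the shared slide). Ms4a7, a surface protein of recruited and interstitial macrophages, was at 13.60, 13.95 and 13.54 in the OB grafts and 9.09, 9.60 and 9.91 in the sham lungs (17.9-fold, adjusted p = 0.000818). The monocyte marker Ly6c2 did not move with it, at 16.53, 16.16 and 16.31 in the OB grafts and 16.56, 16.20 and 16.26 in the sham lungs (adjusted p = 0.989), and the log2 of the summed signals of the list spanned 17.73 to 17.92 in OB and 17.39 to 17.43 in sham arrays. Among 16 alveolar macrophage markers 1 was called higher, Atp6v0d2, and 1 lower, Fabp1, with a median of 0.23. Of these calls, 1 was kept without OB 1 or sham 1 and 0 without OB 3, sham 2 or sham 3. Among 12 neutrophil markers 2 were called higher, Clec4d and Il1r2, and 0 lower, with a median of -0.07 that was 0.04 without OB 3 or without sham 2 and 0.01 within the shared slide. Of the 2 neutrophil calls, 1 was kept without OB 1, OB 3, sham 2 or sham 3. The neutrophil alarmins S100a8 and S100a9 differed by -1.93 (adjusted p = 0.233) and -2.44 (adjusted p = 0.121), and the chitinase-like protein Chil3 of alveolar macrophages by 1.77 (adjusted p = 0.178).

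Among enzymes by which phagocytes deplete amino acids, make itaconate or carry out related metabolism, 11 of 23 were called higher and 0 lower, with 18 above and 5 below 0. Their median was 1.16 (1.23 within the shared slide). Acod1, which makes itaconate, was at 8.81, 10.20 and 9.62 in the OB grafts and 5.91, 4.27 and 4.18 in the sham lungs (27.0-fold, adjusted p = 0.0043). Il4i1, an amino acid oxidase, was at 12.98, 13.88 and 14.62 in the OB grafts and 9.60, 10.36 and 10.93 in the sham lungs (11.6-fold, adjusted p = 0.00629). Ido1, which opens the kynurenine path of tryptophan, was at 9.67, 10.26 and 9.49 in the OB grafts and 7.35, 7.08 and 7.23 in the sham lungs (6.00-fold, adjusted p = 0.00914). Kynu, further along that path, was at 8.09, 8.82 and 8.78 in the OB grafts and 4.58, 5.60 and 6.13 in the sham lungs (8.73-fold, adjusted p = 0.00582). In each of these enzymes every OB array lay above every sham array, as for 19.9% of all genes. Arginase 1 (Arg1) differed by 1.86 (adjusted p = 0.147). Of lysosomal genes 10 of 18 were called higher and 0 lower, with a median of 1.14 (1.18 within the shared slide). Gpnmb, a glycoprotein of lipid-laden and matrix-degrading macrophages, was at 12.71, 11.68 and 12.39 in the OB grafts and 8.48, 8.09 and 8.22 in the sham lungs (16-fold, adjusted p = 0.00168). Cathepsin S (Ctss), which trims the class II invariant chain, was at 17.20, 16.53 and 17.15 in the OB grafts and 14.11, 14.41 and 14.55 in the sham lungs (6.08-fold, adjusted p = 0.00168).

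Of 17 C-type lectins and scavenger receptors, 9 were called higher and 1 lower. Their median was 1.71 (1.70 within the shared slide). Clec10a, which binds galactose sugars, was at 11.21, 11.69 and 11.50 in the OB grafts and 7.87, 9.28 and 9.39 in the sham lungs (6.13-fold, adjusted p = 0.00895). Clec9a, by which cross-presenting dendritic cells take up dead cells, was at 9.55, 10.15 and 9.66 in the OB grafts and 6.75, 7.21 and 7.57 in the sham lungs (6.12-fold, adjusted p = 0.00421). Cd36, the fatty acid and thrombospondin receptor that is also abundant in lung capillaries, was the member called lower (12.22, 11.32 and 12.12 in the OB grafts and 13.76, 13.64 and 13.48 in the sham lungs, adjusted p = 0.0146), and its call was lost without sham 1 or sham 2 (adjusted p up to 0.0647). In the inflammasome list 7 of 16 were called higher and 0 lower, with 4 kept without sham 1 or sham 2 and 3 without OB 2 or OB 3. Their median was 1.28 (1.20 within the shared slide). Zbp1, a sensor of Z-form nucleic acids, was at 12.18, 11.69 and 11.75 in the OB grafts and 8.77, 9.54 and 9.33 in the sham lungs (6.31-fold, adjusted p = 0.00715), and the protease Casp1 rose by 1.97 (adjusted p = 0.00555). The cytokines that caspase 1 matures did not pass the test: Il1b was at 9.41, 8.55 and 9.08 in the OB grafts and 8.00, 10.25 and 9.29 in the sham lungs (adjusted p = 0.883) and Il18 differed by -0.15 (adjusted p = 0.748). Of 20 acute phase and antimicrobial genes 1 was called higher, Saa3, and 1 lower, the iron hormone hepcidin (Hamp). The macrophage amyloid Saa3 was at 13.79, 12.16 and 11.05 in the OB grafts and 8.27, 8.08 and 8.32 in the sham lungs (17.3-fold, adjusted p = 0.0356), highest in OB 1, and its call was lost without OB 1, OB 2, sham 1, sham 2 or sham 3 (adjusted p up to 0.122).

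**Figure D2:**
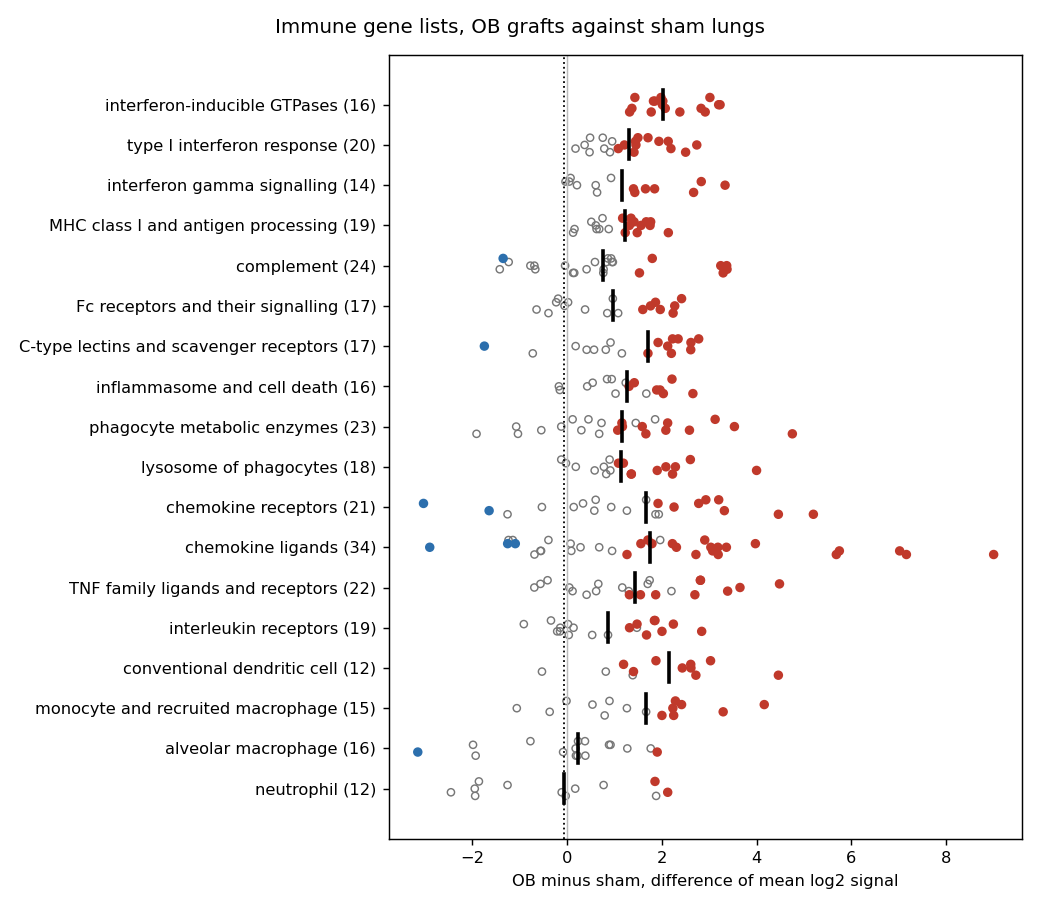
Difference of mean log2 signal, OB minus sham (horizontal axis), of each measured member of 18 immune gene lists, with the number of members in brackets; filled points are called (red higher, blue lower), open points are not, the heavy tick is the list median and the dotted line the median of all named genes (-0.05). All 16 GTPases are filled, while the alveolar macrophage and neutrophil lists straddle the dotted line.

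Among dendritic cell genes, 9 of 12 conventional dendritic cell markers were called higher and 0 lower (median 2.16, and 2.13 within the shared slide), with the log2 of their summed signals at 16.45 to 16.76 in OB and 15.11 to 15.33 in sham arrays. Xcr1, the chemokine receptor that defines cross-presenting dendritic cells, was at 7.64, 6.47 and 6.51 in the OB grafts and 2.15, 3.1 and 1.99 in the sham lungs, and no sham array had it well above background (at least 7.08-fold higher, adjusted p = 0.0025). Flt3, the growth factor receptor of the lineage, was at 10.56, 10.52 and 10.70 in the OB grafts and 7.13, 7.63 and 7.93 in the sham lungs (8.17-fold, adjusted p = 0.00132). Of 10 markers of mature dendritic cells 6 were called higher and 0 lower (median 1.38, and 1.26 within the shared slide), with 3 kept without OB 3 or sham 2. Il12b, a chain of interleukin 12, was at 7.35, 7.48 and 7.95 in the OB grafts and 5.03, 4.49 and 4.42 in the sham lungs (7.70-fold, adjusted p = 0.00163). The costimulatory ligand Cd86 rose by 2.66 (adjusted p = 0.00106) and the actin-bundling protein Fscn1 by 2.30 (adjusted p = 0.00685). Of 8 plasmacytoid dendritic cell markers 2 were called higher, Lair1 (2.45, adjusted p = 0.00224) and Ccr9 (1.92, adjusted p = 0.00446), and the defining marker Siglech overlapped between groups at 15.56, 16.35 and 16.74 in the OB grafts and 15.89, 15.41 and 15.41 in the sham lungs (adjusted p = 0.361).

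More chemokine ligands and receptors were called higher than lower. Of 34 ligands 19 were called higher and 3 lower, Ppbp, Cxcl14 and Cx3cl1 (median 1.75, and 2.07 within the shared slide), and of 21 receptors 8 were called higher and 2 lower, Ackr4 and Ackr2 (median 1.67, and 1.33 within the shared slide). Xcl1, a lymphocyte product whose only receptor is Xcr1, was at 9.10, 9.72 and 10.32 in the OB grafts and 5.15, 6.23 and 5.84 in the sham lungs (15.7-fold, adjusted p = 0.00229). Ccl8, the monocyte chemoattractant with the largest rise in its subgroup, was at 15.07, 14.40 and 14.62 in the OB grafts and 8.23, 9.02 and 9.61 in the sham lungs (53.6-fold, adjusted p = 0.000839), and Ccl12, Ccl7 and Ccl2 of the same cluster rose by 3.36, 3.19 and 2.72. Ccr2, a receptor of Ccl2, Ccl7 and Ccl12, differed by 1.27 (adjusted p = 0.167). Cxcr3, the receptor of the interferon-induced ligands, was at 11.49, 12.05 and 12.17 in the OB grafts and 8.24, 8.53 and 8.98 in the sham lungs (10.0-fold, adjusted p = 0.00141). Its ligand Cxcl10 was at 13.40, 13.69 and 13.52 in the OB grafts and 7.67, 7.84 and 8.06 in the sham lungs (51.3-fold, adjusted p = 0.000237). Receptor and ligand were each separate between the groups, as were 19.9% of all genes with OB above. The receptors Cxcr6 and Ccr4 rose by 3.20 and 2.78 (adjusted p = 0.00245 and adjusted p = 0.00381). The neutrophil chemoattractants did not pass the test: Cxcl1 differed by -0.39 (adjusted p = 0.783) and Cxcl5, well above background on 2 arrays of each group, by 1.97 (adjusted p = 0.358). Ppbp, a chemokine of platelets, was the ligand that fell most, at 9.53, 7.57 and 8.50 in the OB grafts and 11.47, 11.58 and 11.20 in the sham lungs (adjusted p = 0.0102). It lost its call without sham 2 (adjusted p = 0.0507).

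Atypical chemokine receptors, which bind chemokines without classical signalling, went both ways. Ackr1, the chemokine-transporting receptor of venules and red cells, was at 9.84, 10.23 and 9.80 in the OB grafts and 3.61, 5.0 and 5.67 in the sham lungs (36.7-fold, adjusted p = 0.00245), well above background on 2 sham arrays. Ackr4, a scavenger of Ccl19 and Ccl21, was at 4.26, 5.81 and 5.04 in the OB grafts and 7.46, 8.37 and 8.34 in the sham lungs (8.11-fold lower, adjusted p = 0.0151), well above background on 2 OB arrays. Its call was lost without OB 3, sham 2 or sham 3 (adjusted p up to 0.068). The inflammatory chemokine scavenger Ackr2 fell by 1.64 ± 0.33 (SE) (adjusted p = 0.0264), a call lost without OB 2, OB 3, sham 1, sham 2 or sham 3 (adjusted p up to 0.0941). In a list for lymphoid aggregates 2 of 14 genes were called higher, the B-cell attractant Cxcl13 (3.18, adjusted p = 0.00657) and the T-zone chemokine Ccl19 (2.91, adjusted p = 0.00335), and 1 was lower, Chst4, with a median of 0.63 (0.28 within the shared slide).

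Of costimulatory members of the TNF family, 9 of 22 were called higher and 0 lower. Their median was 1.44 (1.23 within the shared slide). Cd70, the ligand of Cd27, was at 6.36, 6.46 and 6.77 in the OB grafts and 1.96, 2.34 and 1.84 in the sham lungs, well above background on no sham array (at least 5.58-fold, adjusted p = 0.00114). Tnfrsf9 (4-1BB), a receptor that sustains activated T cells, was at 10.08, 9.69 and 9.80 in the OB grafts and 6.34, 5.96 and 6.31 in the sham lungs (12.6-fold, adjusted p = 0.00132). Tnfrsf4 (OX40), of the same kind, was at 11.96, 12.26 and 12.14 in the OB grafts and 8.56, 8.66 and 8.96 in the sham lungs (10.5-fold, adjusted p = 0.000818). All 3 genes were apart between the groups, as were 19.9% of all genes with OB above, and their OB arrays lay close together. Of 19 interleukin receptor genes 8 were called higher and 0 lower (median 0.87, and 0.84 within the shared slide), with 5 kept without OB 2, sham 1 or sham 3, 4 without OB 3 and 3 without sham 2. The interleukin 12 receptor chain Il12rb1 was at 9.64, 10.28 and 10.00 in the OB grafts and 6.94, 7.14 and 7.31 in the sham lungs (7.18-fold, adjusted p = 0.00197). The high-affinity interleukin 2 receptor chain Il2ra was at 8.68, 9.44 and 9.54 in the OB grafts and 7.11, 6.86 and 6.95 in the sham lungs (4.75-fold, adjusted p = 0.0037). Regulatory T cells carry that chain at high level, and their factor Foxp3 was at 8.01, 8.46 and 8.32 in the OB grafts and 4.79, 5.30 and 5.0 in the sham lungs (9.42-fold, adjusted p = 0.00105). Of 18 leukocyte adhesion genes 7 were called higher and 0 lower (median 1.09, and 1.17 within the shared slide). The integrin chain Itgae, which holds lymphocytes and dendritic cells in epithelium, rose by 2.43 (adjusted p = 0.00161), and the endothelial ligand Icam1 differed by -0.33 (adjusted p = 0.376).

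Other immune and mucosal lists held members with large rises. Prg2, the major basic protein of eosinophil granules, was at 7.77, 8.64 and 7.94 in the OB grafts and 3.54, 2.07 and 3.27 in the sham lungs (at least 16.8-fold, adjusted p = 0.00155), while eosinophil peroxidase (Epx) was not well above background on any of the 6 arrays and 1 of the 10 genes of the eosinophil list was called. Jchain, which joins immunoglobulin A and M, was at 13.90, 15.21 and 13.87 in the OB grafts and 9.45, 9.18 and 9.54 in the sham lungs (30.6-fold, adjusted p = 0.00163). Of 9 measured immunoglobulin secretion genes 3 were called higher and 0 lower, with 1 kept without sham 2. Itln1, a lectin of mucous cells, was at 9.05, 9.60 and 8.52 in the OB grafts and 2.32, 4.19 and 4.32 in the sham lungs (43.6-fold, adjusted p = 0.00495), well above background on 1 sham array. The trefoil peptide Tff1 rose by 2.61 (adjusted p = 0.00552), and these were the 2 called of 13 goblet cell genes. The goblet list had a median of 0.69 over all arrays and 2.36 within the shared slide, and its member Clca1 was scattered at 14.54, 8.23 and 10.94 in the OB grafts and 2.14, 8.98 and 8.58 in the sham lungs (adjusted p = 0.3), with 2 sham arrays well above background. The serpin Serpina3f (4.5, adjusted p = 0.00245) and the SLAM family receptors Slamf8 (4.39, adjusted p = 0.00105) and Slamf7 (2.98, adjusted p = 0.00145) rose in every fit with 1 array left out, and all 9 SLAM and Ly receptors had a positive difference, 6 of them called. Serpins went both ways, with 5 of 62 called higher and 4 lower, the latter including Serpina3a, Serpina3k and Serpina3m. Of the serpin calls, 4 were kept without OB 2, OB 3, sham 1 or sham 3 and 3 without sham 2.

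On the falling side, called members of the BMP pathway included a ligand, receptors and feedback inhibitors: 8 of 28 genes were called lower and 0 higher, 6 of them in every fit with 1 array left out, with a median of -0.84 (-1.12 within the shared slide). Bmp6, a ligand made by endothelium, was at 9.06, 9.31 and 9.47 in the OB grafts and 11.82, 11.62 and 11.80 in the sham lungs (5.53-fold lower, adjusted p = 0.00325). Smad6, an inhibitory Smad induced by the pathway, was at 9.49, 9.29 and 9.14 in the OB grafts and 12.25, 11.59 and 11.72 in the sham lungs (5.85-fold lower, adjusted p = 0.00335). Bmpr2, the BMP receptor mutated in heritable pulmonary hypertension, was at 13.28, 12.76 and 13.22 in the OB grafts and 15.06, 14.92 and 14.73 in the sham lungs (3.52-fold lower, adjusted p = 0.00937). The endothelial coreceptor endoglin (Eng) was at 11.52, 12.31 and 11.68 in the OB grafts and 13.83, 13.42 and 13.39 in the sham lungs (3.27-fold lower, adjusted p = 0.00895). The highest OB array lay below the lowest sham array in each of these genes, as for 23.4% of all genes. Id1, a common BMP target, differed by -1.52 (adjusted p = 0.0776), and the antagonist Grem1 was scattered at 9.04, 9.26 and 5.28 in the OB grafts and 5.91, 5.13 and 5.93 in the sham lungs (adjusted p = 0.254).

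Endothelial markers fell with the BMP genes: 13 of 18 were called lower and 0 higher (8 kept without OB 3 and 7 without OB 2, sham 1, sham 2 or sham 3), all 18 had a negative difference, and the log2 of their summed signals was 16.49 to 16.56 in OB and 17.86 to 18.26 in sham arrays. The part of the endothelium in the BMP, Notch and vasoactive lists was not tested. Kdr, the VEGF receptor, was at 11.98, 12.35 and 12.31 in the OB grafts and 14.40, 14.51 and 14.42 in the sham lungs (4.69-fold lower, adjusted p = 0.003). Car4, carbonic anhydrase of a specialised alveolar capillary cell, fell by 2.17 ± 0.34 (SE) (adjusted p = 0.0109). Cldn5, the tight junction protein of endothelium, was at 14.06, 13.22 and 13.67 in the OB grafts and 16.07, 15.58 and 15.77 in the sham lungs (4.46-fold lower, adjusted p = 0.00398). Emcn, also an endothelial marker, had overlapping groups at 12.32, 12.97 and 12.94 in the OB grafts and 12.61, 12.99 and 12.85 in the sham lungs (adjusted p = 0.876). Vegfa, the ligand of Kdr made by alveolar epithelium, was at 12.02, 12.65 and 12.68 in the OB grafts and 14.16, 13.88 and 14.14 in the sham lungs (3.06-fold lower, adjusted p = 0.0176). Its call was lost without sham 1, sham 2 or sham 3 (adjusted p up to 0.0695). Among 16 Notch genes 5 were called lower and 0 higher, with 3 kept without OB 2, OB 3 or sham 3 and 1 without sham 1. Their median was -0.66 (-0.93 within the shared slide). The target gene Hes1 was at 8.40, 8.00 and 7.71 in the OB grafts and 9.99, 10.19 and 9.68 in the sham lungs and stayed called in every such fit (3.77-fold lower, adjusted p = 0.00829), while the endothelial ligand Dll4 fell by 1.65 ± 0.26 (SE) with the call lost without sham 1 (adjusted p = 0.0505). Among 20 junction genes 7 were called lower and 0 higher, with 4 kept without OB 1, OB 2 or OB 3, 3 without sham 3 and 2 without sham 1 or sham 2. Their median was -0.76 in each of the full and the shared-slide comparison.

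Among vasoactive receptors and enzymes, by which the vessel wall makes and answers hormones, 7 of 27 were called lower and 0 higher, with 24 below and 3 above 0. Of these calls, 2 were kept without OB 2 or sham 3 and 1 without sham 1 or sham 2. Their median was -0.83 (-1.0 within the shared slide). Adrb1, the beta-1 adrenergic receptor, was at 10.26, 9.83 and 10.18 in the OB grafts and 12.01, 11.94 and 11.95 in the sham lungs (3.69-fold lower, adjusted p = 0.00469) and stayed called whichever array was left out. Ednrb, the endothelin receptor of capillary endothelium, was at 7.85, 7.78 and 8.14 in the OB grafts and 10.39, 10.22 and 10.39 in the sham lungs (5.32-fold lower, adjusted p = 0.0138). Its call was lost without OB 2, sham 1, sham 2 or sham 3 (adjusted p up to 0.0566). Of 20 lung transcription factors 5 were called lower and 0 higher, with 3 kept without OB 1, 2 without OB 2 or sham 3 and 1 without OB 3, sham 1 or sham 2. Their median was -0.90 (-1.13 within the shared slide). Hopx, a marker of alveolar type 1 cells, was at 13.83, 13.10 and 13.70 in the OB grafts and 15.55, 15.28 and 15.26 in the sham lungs (3.53-fold lower, adjusted p = 0.00519), and Foxf1, the mesenchymal and endothelial factor of lung vessels, fell by 2.03 ± 0.36 (SE) (adjusted p = 0.0176). Its call was lost without OB 2, OB 3, sham 1 or sham 2 (adjusted p up to 0.0661). Nkx2-1, the factor that specifies lung epithelium, differed by -0.26 (adjusted p = 0.576).

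**Figure D3:**
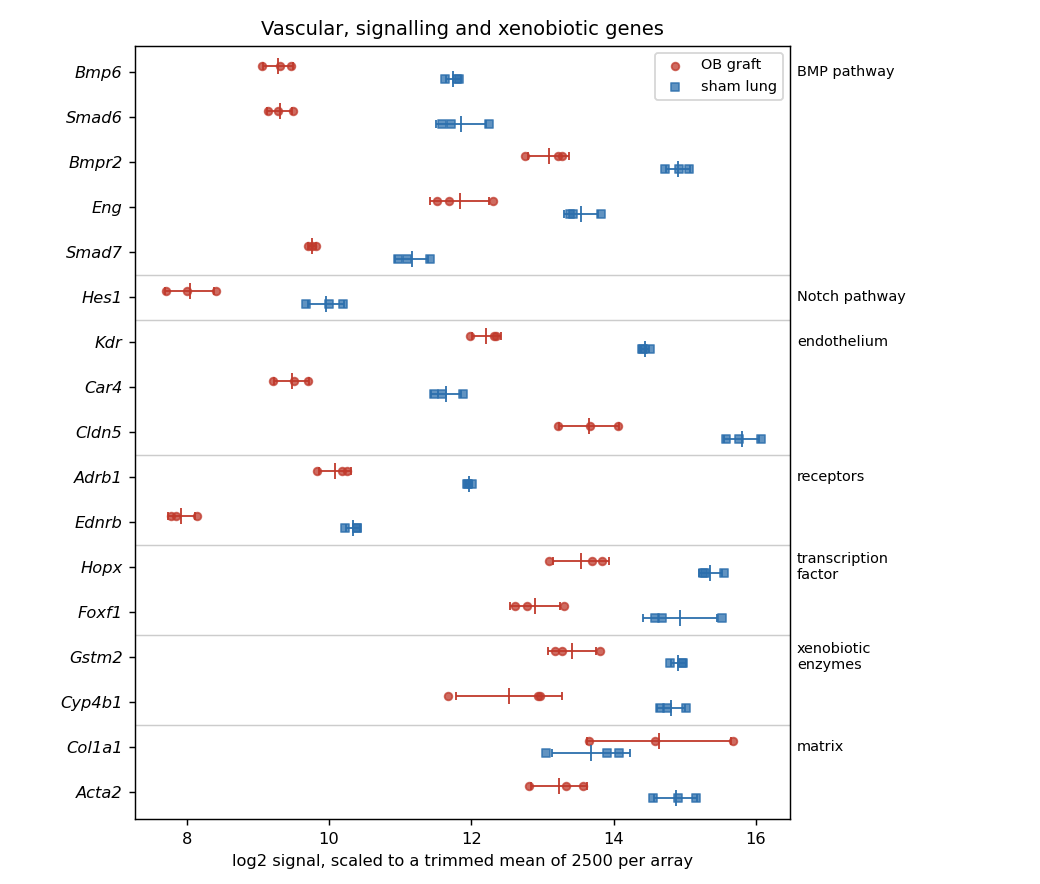
Log2 signal (horizontal axis, scaled to a trimmed mean of 2500 per array) of each OB array (red circles) and sham array (blue squares) for vascular, signalling, xenobiotic and matrix genes, with the mean and SD of each group as a vertical tick and a bar. Every gene shown is lower in all OB arrays than in all sham arrays except Col1a1, whose groups overlap, and the OB spread is widest in that gene.

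Among enzymes that modify foreign chemicals, all 29 xenobiotic enzymes outside the cytochrome P450 family had a negative difference, 11 were called lower and 0 higher, and the median was -1.25 (-1.08 within the shared slide). Of the 11 calls, 6 were kept without OB 2, 4 without OB 3, 3 without sham 3, 2 without sham 1 and 1 without sham 2. Of the 11, 1 stayed called whichever array was left out, the glutathione transferase Gstm2 at 13.27, 13.80 and 13.17 in the OB grafts and 14.79, 14.98 and 14.97 in the sham lungs (2.82-fold lower, adjusted p = 0.00806). The flavin monooxygenase Fmo1 fell by 1.95 ± 0.32 (SE) (adjusted p = 0.0138), a call lost without sham 1 or sham 2 (adjusted p up to 0.0595). In the cytochrome P450 family 8 of 101 genes were called lower and 0 higher, 7.92% against 3.73% of all genes called lower. At an unadjusted p under 0.05 in limma, 23 were lower and 4 higher. The family median was 0.02, with 52 genes above and 49 below 0. Of the 101 genes, 37 were not well above background on any OB or sham array. With dim probes left out the median was -0.63. Of the 8 P450 calls, 5 were kept without OB 2 or OB 3, 4 without sham 3, 3 without sham 1 and 2 without sham 2. Cyp4b1, an enzyme of club and alveolar type 2 cells, was at 12.97, 11.67 and 12.94 in the OB grafts and 15.02, 14.75 and 14.65 in the sham lungs (4.86-fold lower, adjusted p = 0.0153). Its call was lost without sham 1 or sham 2 (adjusted p up to 0.0628). Club cell and cilium genes moved the same way. Of 10 club cell genes 2 were called lower and 0 higher (median -1.80, and -0.81 within the shared slide), with 1 kept without OB 2 and 0 without OB 3, sham 1, sham 2 or sham 3. Of 19 cilium movement genes 6 were called lower and 0 higher (median -1.39, and -1.03 within the shared slide), with 2 kept without OB 2, 1 without OB 3 or sham 1 and 0 without sham 2 or sham 3. The log2 of the summed club cell signals was 18.34 to 20.14 in OB and 20.47 to 20.72 in sham arrays. That of cilium movement was 14.75 to 15.68 in OB and 16.73 to 16.93 in sham arrays. OB 2 was lowest in both of those lists as it was in Cyp4b1, and the part of these cells in the enzyme falls was not tested.

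Fibroblast lists pointed in different ways. All 13 alveolar fibroblast markers had a negative difference and 5 were called lower (median -1.14, and -1.22 within the shared slide), with 3 kept without OB 1 or OB 2, 2 without OB 3 or sham 1, 1 without sham 3 and 0 without sham 2. Wnt2, a ligand of these cells, fell by 2.06 ± 0.33 (SE) (adjusted p = 0.0121), a call lost without sham 2 (adjusted p = 0.0593). Slc7a10, an amino acid transporter, fell by 2.16 ± 0.36 (SE) (adjusted p = 0.0138), a call lost without OB 3, sham 2 or sham 3 (adjusted p up to 0.0621). Among 13 pericyte markers 4 were called lower, Lamc3, Higd1b, Trpc6 and Ndufa4l2, and 0 higher (median -0.81, and -0.94 within the shared slide), with 2 kept without OB 1 or OB 3, 1 without OB 2, sham 1 or sham 3 and 0 without sham 2. Of 12 adventitial fibroblast markers 0 were called in limma, with a median of -0.00, 4 lower and 0 higher at an unadjusted p under 0.05, and 3 lower in the t-test. In the list of activated fibroblast and matrix genes 15 of 17 had a positive difference but 0 were called higher in limma, with a median of 0.77 (1.02 within the shared slide). At an unadjusted p under 0.05, 2 were higher in limma and 1 in the t-test. Col1a1, the main fibrillar collagen chain of scars, was at 14.59, 15.68 and 13.65 in the OB grafts and 13.05, 13.91 and 14.08 in the sham lungs (adjusted p = 0.397), highest in OB 2 and within the sham range in OB 3. The myofibroblast marker Lrrc15 was at 7.38, 6.08 and 2.51 in the OB grafts and 1.92, 2.42 and 1.71 in the sham lungs (adjusted p = 0.133), well above background on 2 OB arrays and no sham array. OB 3 was thus the lowest OB array in both, as it also was in Grem1. The 1 called member was Acta2, smooth muscle actin, which fell by 1.64 ± 0.26 (SE) (adjusted p = 0.0111), a call lost without sham 2 (adjusted p = 0.055). Of 44 collagen genes 2 were called higher, Col6a5 and Col22a1, and 2 lower, Col13a1 and Col4a6, or 9.09% against 7.55% of all genes. Of these calls, 2 were kept without OB 1 or OB 3, 1 without sham 1 or sham 3 and 0 without sham 2. Col6a5 rose by 2.81 (adjusted p = 0.0278), a call lost without OB 1, OB 2, sham 1, sham 2 or sham 3 (adjusted p up to 0.102). Col22a1 rose by 1.91 (adjusted p = 0.0319), a call lost without OB 1, OB 3, sham 1, sham 2 or sham 3 (adjusted p up to 0.113).

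In the Wnt pathway 2 of 37 genes were called lower and 0 higher, Wif1 and Wnt2 (median -0.40), 5.41% against 3.73% of all genes called lower. At an unadjusted p under 0.05, 17 Wnt genes were lower and 1 higher in limma, and 15 lower and 1 higher in the t-test. In the FGF pathway 2 of 16 were called lower, Fgf1 and Fgfr3, 12.5% against 3.73% of all genes, with 15 of 16 below 0, 11 of them at an unadjusted p under 0.05, and a median of -0.93. Of the 2 FGF calls, 0 were kept without OB 2 and 1 without OB 1, OB 3, sham 1, sham 2 or sham 3. In the Hedgehog pathway 0 of 14 were called in limma (median -0.26), with 4 lower and 0 higher at an unadjusted p under 0.05 and 2 lower in the t-test. Among basement membrane and elastic fibre genes 1 of 22, Col4a6, was lower (median -0.44), a call lost without sham 2. Wif1, a secreted Wnt inhibitor, with the largest of these falls at 6.61, 5.05 and 5.85 in the OB grafts and 8.41, 8.94 and 8.59 in the sham lungs (adjusted p = 0.0304), lost its call without OB 2, OB 3, sham 1, sham 2 or sham 3 (adjusted p up to 0.114).

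**Figure D4:**
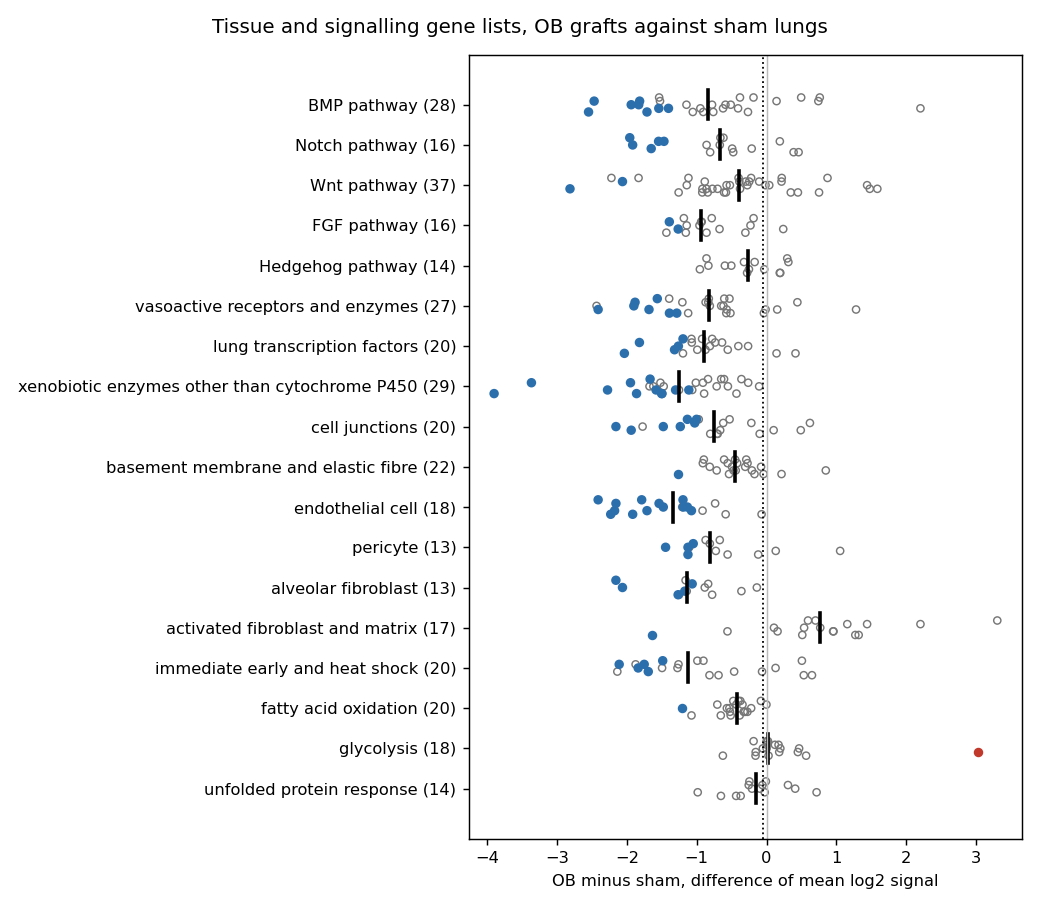
Difference of mean log2 signal, OB minus sham (horizontal axis), of each measured member of 18 tissue, signalling and metabolic gene lists, with the number of members in brackets; filled points are called (red higher, blue lower), open points are not, the heavy tick is the list median and the dotted line the median of all named genes (-0.05). The BMP, endothelial and xenobiotic medians lie left of the line, with 8, 13 and 11 filled points, and 5 BMP members lie above 0. Glycolysis has a median of 0.03 with 1 filled point, Hk3.

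Contractile genes of vessels, airways and pulmonary veins were mostly called lower. In the smooth muscle list 9 of 13 were called lower and 0 higher (median -1.50, and -1.34 within the shared slide), with 5 kept without OB 3 and 4 without sham 2. They included calponin (Cnn1), which fell by 3.14 ± 0.46 (SE) (adjusted p = 0.00916), and Myocd, the coactivator that drives these genes, which fell by 1.40 ± 0.20 (SE) (adjusted p = 0.00767). Cardiac muscle genes, which in mouse lung come from the sleeves around pulmonary veins, fell further, with 9 of 13 called lower, a median of -3.80 (-2.81 within the shared slide), with 5 kept without OB 3, 4 without sham 3 and 3 without sham 2, and the log2 of their summed signals at 12.28 to 13.83 in OB and 16.06 to 17.55 in sham arrays. Skeletal muscle genes differed between the grafts: the log2 of their summed signals was 15.36, 13.41 and 11.59 in OB 1, 2 and 3 against 11.02 to 11.53 in sham arrays. The fast myosin Myh4 was at 10.31, 9.85 and 2.61 in the OB grafts and 1.96, 1.84 and 1.81 in the sham lungs (adjusted p = 0.116), high in OB 1 and OB 2 and not well above background in OB 3. Of 12 skeletal genes 1 was called, Tnni2 (2.82, adjusted p = 0.0128), a call lost without sham 1 or sham 2 (adjusted p up to 0.0559).

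Immediate early and heat shock genes, which respond within minutes to growth factors and stress, were called lower in 5 of 20 cases and called higher in 0, with 16 below and 4 above 0 and a median of -1.12 (-0.53 within the shared slide). Of the 5 calls, 3 were kept without OB 1, OB 2 or sham 3, 2 without OB 3 or sham 1 and 1 without sham 2. Ier2 was at 10.41, 10.33 and 10.19 in the OB grafts and 11.95, 12.53 and 11.96 in the sham lungs (3.57-fold lower, adjusted p = 0.00736) and stayed called whichever array was left out. Egr1 fell by 2.11 ± 0.35 (SE) (adjusted p = 0.0139), a call lost without sham 2 (adjusted p = 0.0619). Fos differed by -2.14 (adjusted p = 0.0611). Of 19 circadian genes 0 were called in limma, with 1 higher and 1 lower at an unadjusted p under 0.05 and 1 higher in the t-test. The repressor Nr1d1 was at 8.36, 10.84 and 8.04 in the OB grafts and 10.78, 10.40 and 10.77 in the sham lungs (adjusted p = 0.372), so that OB 2 lay with the sham lungs and the other OB arrays below them. The signs of the circadian, fat and unfolded protein response medians turned with the slide setting or the choice of sham arrays.

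Of 377 solute carriers 10 were called higher and 21 lower, 8.22% against 7.55% of all genes, and the median was -0.08. Of these calls, 16 were kept without sham 3, 15 without OB 2 or sham 1, 13 without OB 3 and 11 without sham 2. Slc37a2, a sugar phosphate exchanger of macrophages, and Slc11a1, the phagosomal metal transporter, rose by 2.51 and 2.30 (adjusted p = 0.00164 and adjusted p = 0.00289). Of 98 potassium channel genes 2 were called higher and 7 lower, or 9.18%. Of these calls, 4 were kept without sham 1, 3 without OB 3 or sham 2 and 2 without OB 2 or sham 3. Kcnj10, an inward rectifier best known in glia, was at 8.05, 9.33 and 9.45 in the OB grafts and 4.18, 4.83 and 5.06 in the sham lungs (19.1-fold, adjusted p = 0.00245) and well above background on 2 sham arrays, and Kcnn4, the calcium-activated channel of lymphocytes and macrophages, rose by 2.19 (adjusted p = 0.00315).

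Metabolic and housekeeping groups had few calls. Of 78 cytosolic ribosomal proteins 0 were called in limma (median 0.10), where 1 was higher and 1 lower at an unadjusted p under 0.05, against 15 higher and 0 lower in the t-test. Of 46 genes grouped under complex I by their Nduf symbols, 1 was called lower, Ndufa4l2, a gene of hypoxic and mural cells. All 46 had a negative difference, with a median of -0.29. Symbols alone do not make a gene a complex I subunit, Ndufa4l2 included. Ndufa4l2 fell by 1.05 ± 0.16 (SE) (adjusted p = 0.0108), a call lost without sham 2 (adjusted p = 0.0585). Of 20 fatty acid oxidation genes 1 was called lower, the nuclear receptor Ppara, and all 20 had a negative difference (median -0.42, and -0.41 within the shared slide). At an unadjusted p under 0.05, 9 of them were lower in limma and 11 in the t-test. Ppara fell by 1.22 ± 0.19 (SE) (adjusted p = 0.0108), a call lost without sham 2 (adjusted p = 0.0581). In glycolysis 1 of 18 genes was called, Hk3, the hexokinase of myeloid cells, at 12.43, 12.77 and 12.34 in the OB grafts and 8.84, 9.72 and 9.88 in the sham lungs (8.19-fold higher, adjusted p = 0.00286), with a list median of 0.03. Of 14 unfolded protein response genes 0 were called in limma, with 1 higher and 2 lower at an unadjusted p under 0.05 and the same numbers in the t-test.

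**Figure D5:**
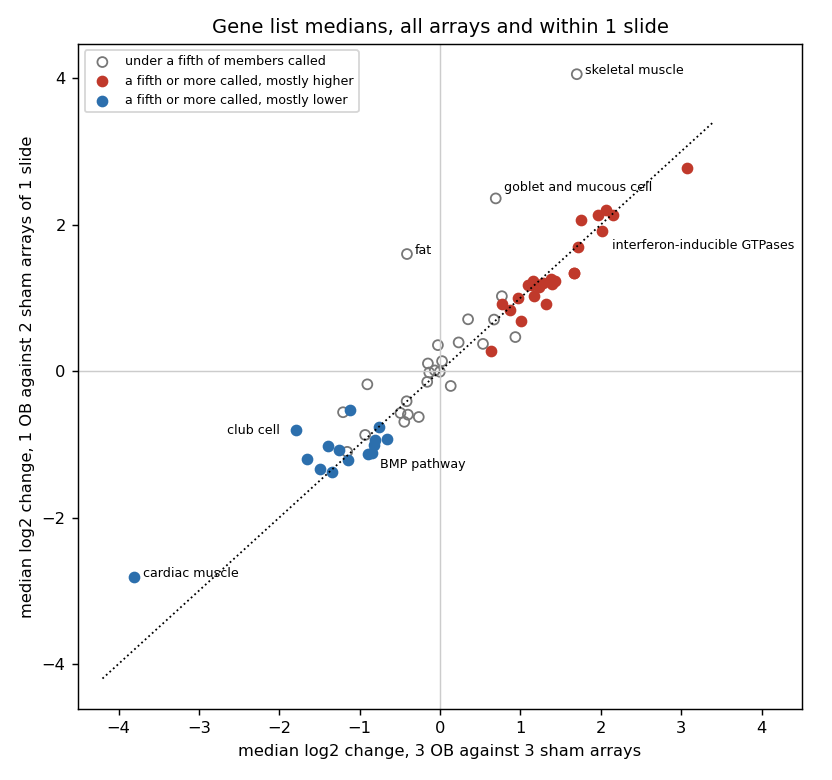
Median log2 change of 65 gene lists over all OB and sham arrays (horizontal axis) against the median within the 1 slide that held both groups, 1 OB and 2 sham arrays (vertical axis); the dotted line marks equal values. All 39 lists with at least 20% of their members called keep their sign, while fat, skeletal muscle and goblet cell lists lie far above the line. The arrays of that slide also enter the horizontal axis.

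List medians within the shared slide could be set beside those of all arrays. Over the 65 lists plotted by slide, 60 had a median of the same sign within the shared slide as over all arrays, and all 39 lists with at least 20% of their members called did so. The arrays of that slide are among those by which members were called, so the same sign is no separate check on slide. For single genes, that slide had 3 arrays of the 2 groups, and 3 genes were called in it, Ccl8, Cxcl9 and Ubd. Of the 1730 called genes, 636 higher and 683 lower ones belonged to none of the 80 lists and families. Among them, chosen after their values were seen, Ly6i, a Ly6 surface protein of myeloid cells, was at 11.19, 10.55 and 12.31 in the OB grafts and 6.55, 6.41 and 6.39 in the sham lungs (30-fold, adjusted p = 0.00163), and Asgr1, a subunit of the asialoglycoprotein receptor, was at 5.59, 5.11 and 5.02 in the OB grafts and 9.13, 9.64 and 9.27 in the sham lungs (17.3-fold lower, adjusted p = 0.00121).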

How the data were processed

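Whole-lung RNA of 3 OB grafts and 3 sham lungs, with 3 non-OB grafts in the same fit, was measured on 1-colour Agilent arrays. The deposited files hold probe intensities from Agilent Feature Extraction 12.0.3.1 (background-subtracted processed signals), and the authors' value table holds the same intensity values scaled per array to a 2% trimmed mean of 2500. That scaling was repeated from the scanner files, with control and outlier spots left out (53 to 111 outlier spots an array, 0 saturated), replicate spots averaged and log2 taken; 56601 probes were tested, 4 had no unmarked spot, and 32991 probes gave 22909 RefSeq genes (GRCm38.p6) through their accessions. The files give no probe coordinates. The probe with the highest mean over the 9 arrays stood for a gene.

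A limma 3.58.1 fit (R 4.3.3) over 3 groups and 9 arrays, with no covariate, gave OB minus sham, and a call needed a Benjamini-Hochberg adjusted p under 0.05 and a 2-fold change. The labels do not say that replicates of a group came from separate surgery days or litters, so p-values measure the spread between these arrays. Simulated data had 56601 probes, 200 of them changed, independent arrays and no slide effect. Of probes changed by log2 2, 43.2% were recovered, and 85.4% of those changed by log2 3, with 10 false calls. These numbers give no error rate for calls on the real arrays. Where no array of the dimmer group had a probe well above background, the fold is a bound against the higher of its own signal and the lowest well-above-background signal of each array. Members and lists were chosen with earlier results of these data known. The text names the 12 largest rises and falls in part, up to 4 called members of a list, and members described for having no call; H2-K1, Xcl1, Cxcl10, Ccl2, Ccl7, Ccl12, Bmpr2, Eng, Cd86, Fscn1, Casp1, Cyp4b1, Myh4, Myocd, Tnfrsf4, Slamf7 and Hk3 were kept or added after their values were seen. A pattern for histone genes matched none. Scaling, background correction, a filter on dim probes, slide as a block, replicate numbers as a block, single sham arrays and the study's t-test were tried as alternatives. Replicate numbers did not pair samples (correlations of deviations 0.0894, -0.1694 and 0.1092). The number of arrays limits the precision. A few genes are not reported here.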

Additional observations from a re-analysis of the deposited data

How the results depend on the processing

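Slide was the setting that changed most: with slide as a fixed block 4 transcripts were called higher and 0 lower, and within the 1 slide that held both groups (1 OB and 2 sham arrays) 5 and 0, against 3471 and 7052 and against 2692 and 3141 at an unadjusted p under 0.05 in limma. With slide as a random block 1983 were called higher and 2161 lower. Normexp background correction gave 1020 higher and 1099 lower and moved the median of all probes by -0.248 (log2), the 75th percentile scaling 1689 and 1101, and the filter on dim probes 1735 and 1802. The methods' t-test gave 2389 higher and 2325 lower at its unadjusted threshold with the fold limit, and 633 and 461 after Benjamini-Hochberg adjustment. Against sham 1 alone, 693 were called higher and 225 lower. Leaving out 1 array gave 727 to 1440 higher and 357 to 1045 lower calls. Replicate numbers did not pair the samples, and with the replicate block 1218 were called higher and 883 lower. The cause of each of these differences was not tested, beyond the fewer arrays of some settings. The authors' value table gave the same 1539 and 1376.

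List medians that turned sign included fat (-0.41, and 1.60 within the shared slide), circadian genes (0.13, and -0.25 with slide as a block) and the unfolded protein response (-0.15, and 0.10 within the shared slide). For some genes another probe, itself not called, went the other way: Vmn1r61 0.44, Il21 -0.80, Trpc6 0.53, Fam183b 0.43, Cyp2c23 0.45, Serpina3a 0.68 and 0.62, Igsf1 0.25, Cd209b 0.27, Ank1 0.42 and Mylk3 0.23. A further probe of Nlrc5, Ackr2, Acta2, Col6a5 and Col22a1 was not called.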

Other observations

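Genes of platelets and megakaryocytes, which in mice also mature in the lung, were lower in the OB grafts. In a textbook list drawn up after the values were seen, 11 of 20 genes were called lower and 0 higher, 17 had a negative difference, and the median was -1.33 (-1.50 with slide as a block and -1.31 within the shared slide), beside 3.73% of all genes called lower. Treml1, a receptor of platelet granules, was at 8.51, 7.92 and 8.05 in the OB grafts and 10.03, 10.40 and 10.20 in the sham lungs, 4.15-fold lower (adjusted p = 0.00259). Gp9, a subunit of the von Willebrand factor receptor, was at 8.16, 6.19 and 7.26 in the OB grafts and 9.73, 9.81 and 9.60 in the sham lungs, 5.69-fold lower (adjusted p = 0.0158), lowest in OB 2, a call lost without OB 3, sham 1, sham 2 or sham 3 (adjusted p up to 0.0682). Platelet factor 4 (Pf4), which macrophages can also make, differed by -0.54 (adjusted p = 0.285). Red cell genes fell beside them, with all 8 erythroid genes negative in sign and 3 called lower (median -1.65). Of these 3 calls, 1 was kept without OB 3, sham 1, sham 2 or sham 3. The log2 of the summed erythroid signals was 18.29 to 19.36 in OB and 19.65 to 19.73 in sham arrays. How much blood each lung held was not measured here and its part in these values was not tested.

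In a list of nerve and Schwann cell genes, also drawn up after the values were seen, 4 of 20 were called lower and 0 higher, with a median of -0.76 that shrank to -0.27 with slide as a block and -0.10 within the shared slide. The axonal growth proteins Gap43 (9.20, 9.11 and 9.23 in the OB grafts and 10.51, 11.08 and 11.07 in the sham lungs, adjusted p = 0.00764) and Stmn2 (11.92, 11.20 and 11.50 in the OB grafts and 14.14, 13.68 and 13.59 in the sham lungs, adjusted p = 0.015) did not overlap between groups, and the call of Stmn2 was lost without OB 2, OB 3, sham 1 or sham 2 (adjusted p up to 0.0618). Groups were apart with OB below sham for 23.4% of all genes. Of 10 genes of lymphatic endothelium, chosen in the same way, 1 was called, Thy1, which T cells also carry (13.65, 14.09 and 14.08 in the OB grafts and 11.75, 12.26 and 12.23 in the sham lungs, adjusted p = 0.00404), and the defining factor Prox1 overlapped between groups at 6.15, 7.64 and 6.31 in the OB grafts and 5.86, 6.78 and 6.79 in the sham lungs (adjusted p = 0.826), with a list median of 0.23 (-0.05 with slide as a block).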
